A study of Mus musculus with 6 samples.

Results

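The 9 genes described here encode calmodulin and proteins that act through it or beside it in neurons: Calm2, Hpca, Nrgn, Camk2a, Camk2b, Camk4, Camk2n1, Ppp3ca and Ppp3r1. They were taken by symbol from a deposited table of 24444 gene symbols, and all 9 were found. They were chosen by values of this same table, and which of its values is not recorded, so the levels by library and the group differences of the 9 genes are a description and not independent evidence. The table holds 6 libraries of poly(A) RNA from mouse telencephalon, the part of the forebrain that forms the cerebral cortex and the basal ganglia, taken at E12.5 (embryonic stage) from C57BL/6J animals. Of these, 3 are labelled wild-type and 3 are labelled Arl13b-/-, here Arl13b-null 1 to 3. The labels name no allele, no driver line and no treatment, and they do not say whether each library is a separate embryo or litter, so an SD, SE or p-value here reflects differences among the 6 libraries only, and some of those may be technical.

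Calcium that enters an active neuron binds calmodulin, and calcium-loaded calmodulin switches on kinases and a phosphatase. CaM kinase II, a holoenzyme of alpha and beta subunits in forebrain neurons, and the nuclear kinase CaMKIV add phosphate, while calcineurin removes it. In the forebrain this machinery is known for synaptic plasticity and activity-dependent transcription, and several of its genes, Nrgn and Camk2a above all, are widely used as markers of neurons that have matured after birth.

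The table of upstream sequences from RefSeq (GRCm38.p6) held 4 of the 9 genes: Nrgn, Camk2b, Ppp3r1 and Hpca. Calm2, Camk2n1, Camk2a, Camk4 and Ppp3ca had no entry. The 250 bases before the annotated start are shown for Nrgn and Camk2b, which had the highest count ratios between libraries below, and for Ppp3r1, which had the lowest. Nrgn lies on the minus strand (chr9:37552746-37552995), Camk2b on the minus strand (chr11:6065749-6065998) and Ppp3r1 on the plus strand (chr11:17159048-17159297). The sequences read 5′ to 3′, and capitals mark matches to the GC box (GGGCGG) or the CCAAT box (CCAAT) on either strand.
Nrgn: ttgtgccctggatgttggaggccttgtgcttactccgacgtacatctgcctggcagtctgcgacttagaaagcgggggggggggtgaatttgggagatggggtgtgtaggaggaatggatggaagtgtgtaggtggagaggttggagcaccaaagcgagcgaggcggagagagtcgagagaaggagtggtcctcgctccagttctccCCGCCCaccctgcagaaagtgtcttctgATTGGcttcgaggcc
Camk2b: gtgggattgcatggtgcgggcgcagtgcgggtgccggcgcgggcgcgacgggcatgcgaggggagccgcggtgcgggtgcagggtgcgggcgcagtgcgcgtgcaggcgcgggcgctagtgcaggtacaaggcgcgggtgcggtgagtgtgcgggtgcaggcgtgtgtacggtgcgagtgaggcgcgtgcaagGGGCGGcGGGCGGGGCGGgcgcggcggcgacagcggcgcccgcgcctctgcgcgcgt
Ppp3r1: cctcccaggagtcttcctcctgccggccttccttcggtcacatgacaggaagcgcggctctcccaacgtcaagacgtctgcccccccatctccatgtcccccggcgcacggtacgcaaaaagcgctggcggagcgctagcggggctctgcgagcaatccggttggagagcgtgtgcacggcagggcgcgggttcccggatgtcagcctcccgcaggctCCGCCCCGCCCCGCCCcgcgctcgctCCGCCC

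The Nrgn window held 1 GC box and 1 CCAAT box, the Camk2b window 3 GC boxes and the Ppp3r1 window 4, and some of these matches touch or overlap. Of 32851 upstream windows of the same length, 32.7% held a GC box and 33.8% a CCAAT box. An E-box (CANNTG, the same on both strands) was found in the Nrgn and Ppp3r1 windows and in 66.2% of all windows. The cAMP response element (TGACGTCA) was in none of the 3 windows and in 1.55% of all, and its TGACG part, searched on both strands and also contained in the full element, was in the Ppp3r1 window and in 17.8% of all. The windows were 58.4% (Nrgn), 78.4% (Camk2b) and 70.8% (Ppp3r1) G or C, against a median of 52.4%. Parts of the RE1 element, which binds the neuronal gene repressor REST, were also searched on both strands: CAGCACC and GGACAG were in none of the 3 windows and in 5.73% and 18.7% of all. A match here describes letters in a window, not a site in use.

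Values below are normalized counts, obtained by undoing the deposited variance-stabilising transformation, or the deposited variance-stabilised values themselves, which follow a log2 scale at high counts. Depth, estimated from the size of a single read, was between 27600000 and 51500000 reads. Arl13b had 661, 553 and 560 normalized counts across wild-type 1 to 3 and 492, 532 and 564 across Arl13b-null 1 to 3 (difference −0.14 ± 0.20, SE, limma adjusted p = 0.990). Since reads are summed over the whole gene, a mutant transcript could still be counted, and the level does not check the genotype labels. Wild-type 1 and Arl13b-null 2 stood apart: across genes, which are not independent replicates, wild-type 1 correlated with the other 4 libraries at r between 0.880 and 0.898 and Arl13b-null 2 at between 0.702 and 0.722, against 0.985 to 0.995 among those 4. Both were also low in the progenitor markers of the labelled stage and high in neuronal markers, given below. Whether their age, tissue and genotype are as labelled was not tested, so the 6-library values compare libraries as labelled. Each result is therefore given with all 6 libraries and with wild-type 2 and 3 and Arl13b-null 1 and 3 alone, called the 4 similar libraries. Within these 4, genotype and sex-linked transcripts coincide: the Y-linked Ddx3y had 1093 and 1258 normalized counts in wild-type 2 and 3 and 0 and 1.23 in Arl13b-null 1 and 3, so sex and genotype cannot be told apart there.

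All 9 genes had their highest value in Arl13b-null 2 and their second highest in wild-type 1. The 4 similar libraries lay close together, with the highest at most 2.54 times the lowest (Nrgn) and only 1.06 times for Calm2. Against the mean of wild-type 2 and 3, the normalized count in Arl13b-null 2 was between 2.84 times (Ppp3r1) and 688 times (Nrgn), and in wild-type 1 between 1.39 times (Calm2) and 14.8 times (Camk2b). This order of libraries was shared by 24.6% of the 14249 genes tested, and nothing is read from the 9 of 9, since the genes were chosen with these levels known. Neither library has a replicate of its kind, so these ratios carry no error. In such tissue RNA, more cells of a type and more RNA per cell cannot be told apart.

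**Figure D1:**
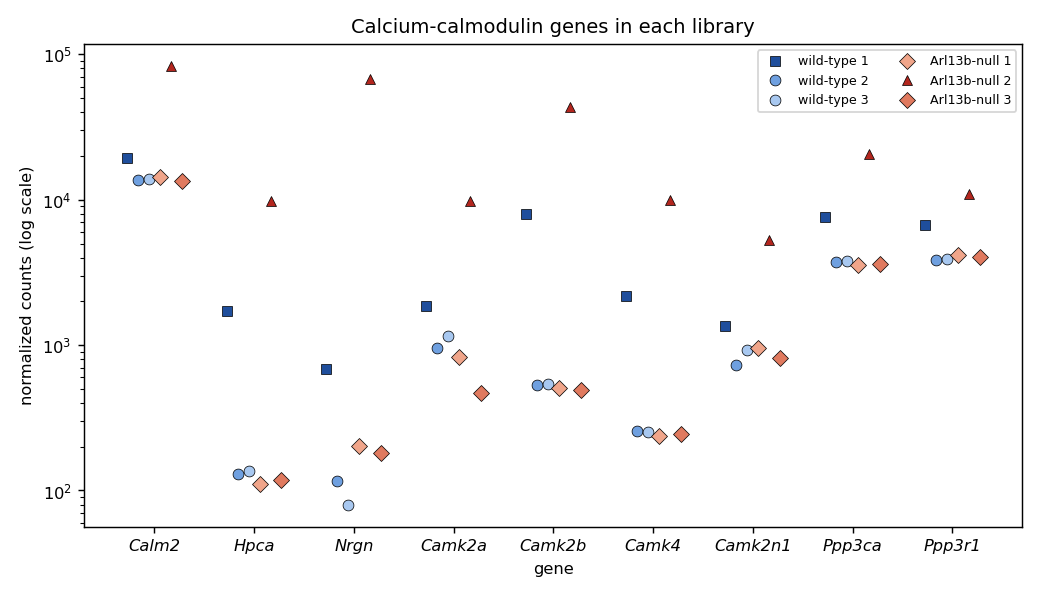
Normalized counts (log axis) of the 9 genes in each of the 6 libraries, 1 point per library. The red triangle, Arl13b-null 2, is the highest point for every gene and the dark blue square, wild-type 1, the second highest, while the other 4 libraries lie together.

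Of the calcium-binding proteins, Calm2 differed least between wild-type 1 and the 4 similar libraries and Hpca differed strongly. Calm2 is 1 of the genes that encode the same calmodulin protein, and it had 19231, 13713 and 13969.6 normalized counts across wild-type 1 to 3 and 14357, 83312 and 13481 across Arl13b-null 1 to 3. Wild-type 1 was at 1.39 times the mean of wild-type 2 and 3, and Arl13b-null 2 alone was far above the rest, at 6.02 times. How the counting treated reads shared with near-identical calmodulin copies is not given in the sources used here. Hpca encodes hippocalcin, a calcium sensor that moves to membranes when it binds calcium. It had 1725, 129.9 and 137 normalized counts across wild-type 1 to 3 and 111, 9837 and 117 across Arl13b-null 1 to 3. Unlike Calm2, Hpca was 12.9 times the mean of wild-type 2 and 3 in wild-type 1 and 73.8 times in Arl13b-null 2.

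Nrgn encodes neurogranin, a postsynaptic protein that holds calmodulin at low calcium through an IQ motif. It had 683, 116 and 79.6 normalized counts across wild-type 1 to 3, and 203, 67446 and 181 across Arl13b-null 1 to 3. Arl13b-null 2 was 98.8 times wild-type 1 for Nrgn, whereas this ratio was between 1.64 (Ppp3r1) and 5.70 (Hpca) for the other 8 genes. Arl13b-null 1 and 3 were also both above wild-type 2 and 3 for Nrgn, at 1.96 times their mean, and both below wild-type 1.

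The CaM kinase genes split into those that differed strongly between libraries and Camk2a, which differed less. Camk2b, the beta subunit that also bundles actin, had 7963, 534 and 542 normalized counts across wild-type 1 to 3, and 509, 43317.5 and 495 across Arl13b-null 1 to 3. Camk4, the nuclear kinase that phosphorylates CREB, had 2181, 259 and 253 across wild-type 1 to 3, and 236, 9916 and 244 across Arl13b-null 1 to 3. For both genes the 4 similar libraries agreed to within 1.10 times, while wild-type 1 was 14.8 times (Camk2b) and 8.53 times (Camk4) the mean of wild-type 2 and 3.

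Camk2a, the alpha subunit of excitatory forebrain neurons, had 1854, 949 and 1149.5 normalized counts across wild-type 1 to 3, and 823, 9873 and 465 across Arl13b-null 1 to 3. In wild-type 1 it was 1.77 times the mean of wild-type 2 and 3, and Arl13b-null 3 was the lowest library, at 0.443 times that mean. Camk2n1, which encodes an inhibitor of CaM kinase II, had 1362, 728 and 922 across wild-type 1 to 3, and 958, 5285 and 812 across Arl13b-null 1 to 3. Among the 4 similar libraries the genotypes overlapped for Camk2n1 and did not for Camk2a, nor did they for 47.5% of all genes tested.

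The calcineurin genes had the lowest ratios in Arl13b-null 2 of the 9. Ppp3ca, the alpha catalytic subunit, had 7633, 3717 and 3782 normalized counts across wild-type 1 to 3, and 3550, 20528 and 3632 across Arl13b-null 1 to 3. Ppp3r1, the regulatory subunit that binds calcium, had 6662, 3822 and 3888 across wild-type 1 to 3, and 4146, 10944 and 4029 across Arl13b-null 1 to 3. Both subunits were highest in Arl13b-null 2, at 5.48 times (Ppp3ca) and 2.84 times (Ppp3r1) the mean of wild-type 2 and 3.

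The 3 ratios between related genes that follow compare libraries, since a ratio of counts within a library also depends on transcript length. Camk2a to Camk2b was 1.78 and 2.12 in wild-type 2 and 3, 1.62 and 0.940 in Arl13b-null 1 and 3, and 0.233 and 0.228 in wild-type 1 and Arl13b-null 2. The balance between the alpha and beta subunits was thus shifted toward beta by −3.06 log2 units in wild-type 1 and −3.09 in Arl13b-null 2. Hpcal1, a close relative of Hpca, was between 6.46 and 7.65 times Hpca in the 4 similar libraries, 0.768 times in wild-type 1 and 0.149 times in Arl13b-null 2. Gap43, a growth cone protein with the same kind of calmodulin-binding motif as neurogranin, was 47.9 and 65.4 times Nrgn in wild-type 2 and 3 and 28.9 and 31.5 times in Arl13b-null 1 and 3. That ratio was 25.2 for wild-type 1 and 1.25 for Arl13b-null 2.

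Calm3 and Calm2, and the catalytic subunits of calcineurin, kept their balance more closely. Calm3 was between 1.32 and 1.67 times Calm2 in the 6 libraries, and Ppp3cb, the beta catalytic subunit, was between 0.836 and 1.15 times Ppp3ca. Ppp3r1 was 1.03 times Ppp3ca in both wild-type 2 and 3 and 1.17 and 1.11 times in Arl13b-null 1 and 3, but 0.873 times in wild-type 1 and 0.533 times in Arl13b-null 2. These pairs were chosen after the values were seen.

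**Figure D2:**
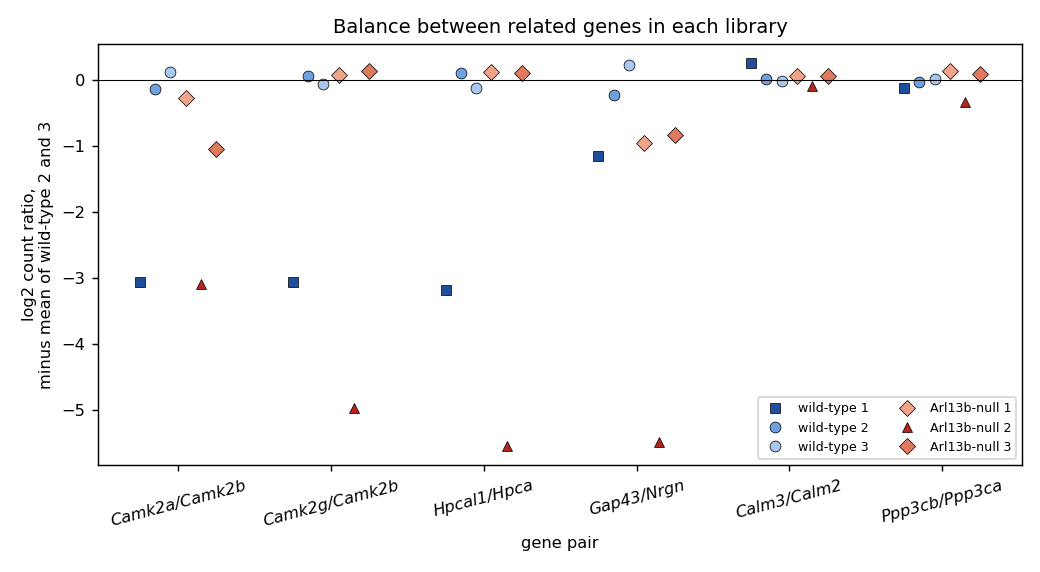
Log2 ratio of the counts of related genes in each library, minus the mean of wild-type 2 and 3, 1 point per library. The ratios of Camk2a and Camk2g to Camk2b and of Hpcal1 to Hpca lie below −3 in wild-type 1 and Arl13b-null 2, that to Nrgn is at −5.49 in Arl13b-null 2, and the Calm3 and Ppp3cb pairs lie between −0.32 and 0.26.

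Other genes of the pathway were taken from 7 lists of 47 genes, 45 of which were tested. Of the 45, 32 were at least 2-fold above the highest of the 4 similar libraries in Arl13b-null 2 and 24 in wild-type 1, where the shares of all genes tested were 21.3% and 12.8%. Of the 9 genes described above, 9 and 5 reached these folds. The 9 genes and the lists were chosen with earlier results of these data known, so nothing is read from how many reached them. The neuronal calcium sensors, relatives of Hpca, were high in Arl13b-null 2 in 9 of 10 cases. As ratios to the mean of wild-type 2 and 3, Vsnl1 was at 69.1 in Arl13b-null 2 and 16.8 in wild-type 1, Ncald at 16.7 and 5.21, Ncs1 at 2.66 and 1.42, and Hpcal1 at 1.57 and 1.42. All 10 other genes of the CaM kinase list were at least 2-fold above in Arl13b-null 2, with Camkv, a kinase-like protein without activity, at 70.4 times and Camk2g, the gamma subunit, at 2.56 times.

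Calcineurin regulators and targets were mixed. Of 10 tested genes of that list, 3 were at least 2-fold above in Arl13b-null 2, and these 3, the catalytic subunit genes Ppp3cb and Ppp3cc and the regulator Rcan1, also had their second highest value in wild-type 1. Rcan1 was at 2.64 times the wild-type 2 and 3 mean in Arl13b-null 2 and 1.55 times in wild-type 1. Rcan2, an inhibitor of calcineurin, was at 0.817 times the wild-type 2 and 3 mean in that library but at 2.22 times in wild-type 1. Nfatc4, a transcription factor that calcineurin activates, was at 0.251 times in Arl13b-null 2 and 0.572 times in wild-type 1. Among calmodulin-binding IQ-motif genes, Gap43 was at 15.6 times in Arl13b-null 2 and Pcp4 at 19.98 times, while Pcp4l1 was at 0.367 times and Iqgap1, which is not specific to neurons, at 0.159 times. Calmodulin-regulated enzymes ranged from Adcy1, a calcium-stimulated adenylyl cyclase, at 31.6 times to Pde1c, a phosphodiesterase, at 0.268 times. Both tested calcium buffers, Calb1 and Calb2, were below 3 times there, at 1.86 and 2.53 times.

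**Figure D3:**
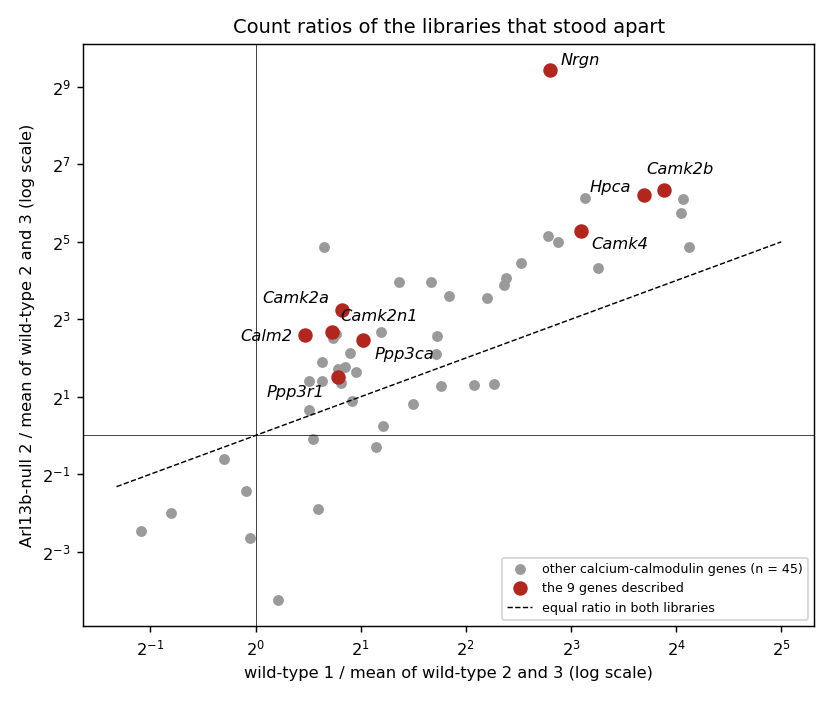
Count ratio to the mean of wild-type 2 and 3 in wild-type 1 (x axis) and Arl13b-null 2 (y axis), both log axes, for the 9 genes (red) and 45 other genes of the pathway (grey). All 9 lie above the dashed line of equal ratios, and Nrgn, at 6.97 and 688 times, lies farthest from it among the 9.

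The genes whose pattern over the 6 libraries was nearest to 3 of the 9 were found by the root mean square difference of variance-stabilised values, each gene centred on its own mean. Nearest to Camk4 were Adcy1 (0.060), the contactin gene Cntn1 (0.070), the protein kinase C gene Prkce (0.084) and Sprn (0.097). Nearest to Camk2a were Myo5b (0.19), Actr3b (0.21), Rprm (0.23) and Sowaha (0.23). For Nrgn the smallest differences were larger: Rprml (0.76), the guanine deaminase gene Gda (0.85), the calcium-dependent kinase gene Ptk2b (0.86) and Fam163b (0.96). The measure is not scaled for range, and Nrgn had the widest range of the 9, so its larger differences do not show that its pattern is unlike others. Rprml and Gda had at most 1.44 and 3.65 normalized counts in the 4 similar libraries, where variance-stabilised values understate differences. Among the 9 themselves, Camk4 and Hpca were 0.29 apart, and Nrgn was at least 1.22 from each of the others. With 6 libraries, of which 2 stand apart, these differences are set mostly by those 2.

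Markers of the labelled stage differed in the same libraries as the 9 genes. The summed normalized count of 10 markers of cycling progenitors, which fill the wall of the telencephalon at this stage, was 38567 for wild-type 1 and 3170 for Arl13b-null 2, and between 135130 and 169404 in the other 4. All 10 were above 0 in every library, and all 10 were below the 4 similar libraries in Arl13b-null 2 (Vim, 601 against 39182 to 49190 normalized counts). The summed count of 12 pan-neuronal markers was 231174 for wild-type 1 and 492713 for Arl13b-null 2, and between 132067 and 139971 in the others. Among these, Tubb3 was 3.59 times the mean of wild-type 2 and 3 in Arl13b-null 2, Stmn2 9.59 times, Dcx 2.04 times and Map2 1.23 times. Over all 12 the ratio in that library ranged from 1.13 (Nefm) to 557 (Thy1), and the ratios of the 9 genes ranged from 2.84 to 688. Thy1 had only 15.2 and 3.92 normalized counts in wild-type 2 and 3, so its ratio rests on low values. Snap25, at 20.7, was the next highest of the 12. Nrgn (688), Camk2b (80.5), Hpca (73.8) and Camk4 (38.8) were above Snap25, and the rest of the 9 were within the range of the markers below it. The part of the progenitor and neuronal markers in the values of the 9 genes was not tested.

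Markers of other cells also differed between the libraries. Cortical excitatory neuron markers (6 genes) summed to 37610 in wild-type 1, 74714 in Arl13b-null 2, 9044 and 11969 in wild-type 2 and 3, and 4930 and 2282 in Arl13b-null 1 and 3. GABAergic and striatal markers (5 genes) summed to 12740 for wild-type 1 and 3728 for Arl13b-null 2, against 6880 to 10653 in the other 4. Most of the sum in Arl13b-null 2 was Ppp1r1b, with 2951 normalized counts, 78.0 times the wild-type 2 and 3 mean. The other genes of this list were below that mean there: Gad1 at 0.350 times, Gad2 at 0.0524, Dlx1 at 0.0891 and Dlx2 at 0.0452. The 7 erythroid markers summed to 27389 for wild-type 1 and 164 for Arl13b-null 2, where 4 of 7 were at 0, and to between 57200 and 288960 in the others. The erythroid genes did not differ in the same direction in wild-type 1. There the embryonic globin genes Hbb-y, Hba-x and Hbb-bh1 were at 0.0103, 0.0193 and 0.00381 times the wild-type 2 and 3 mean. The globin genes that are also used after the embryonic stage, Hba-a1, Hbb-bt and Hbb-bs, were at 2.15, 5.68 and 19.6 times, and Alas2, which encodes an enzyme of heme synthesis, was at 2.23 times. Skin epithelium markers (6 genes) summed to 52245 for wild-type 1 and 1304 for Arl13b-null 2, where 2 of 6, Krt5 and Krt15, were at 0, and to between 315 and 1831 in the others.

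Glial markers had the same order of libraries in their sum, and vascular and other regional markers did not. The 8 astrocyte and oligodendrocyte markers summed to 1736 for wild-type 1 and 2735 for Arl13b-null 2, against 1217 to 1399.5 in the others. Gfap, an astrocyte filament protein, had 32.6 and 74.6 normalized counts there and at most 3.12 in the others. The 7 microglial and endothelial markers summed to 5057 and 441, against 3810 to 4934. Diencephalon and hindbrain markers (7 genes) summed to 10983 and 97.8, against 9609 to 17019, and spinal, sensory and motor neuron markers (7 genes) to 1694 and 345, against 2365 to 2991. The part of these cells in the values of the 9 genes was not tested.

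**Figure D4:**
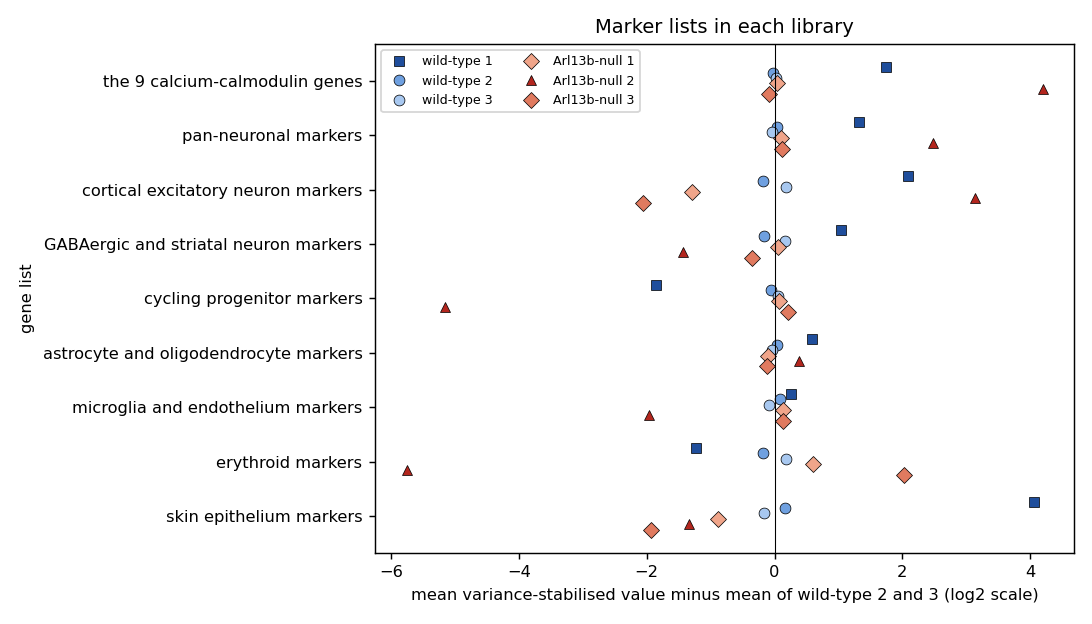
Mean variance-stabilised value of each gene list in each library, minus the mean of wild-type 2 and 3 (log2 scale), 1 point per library. Of the lists plotted, the 9 genes and the pan-neuronal, cortical and glial lists lie to the right in wild-type 1 and Arl13b-null 2. The cycling progenitor and erythroid lists lie to the left in both. The remaining lists lie to the right in wild-type 1 and to the left in Arl13b-null 2.

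The comparison of the labelled genotypes asks what differs in the telencephalon without Arl13b, a GTPase that localises to primary cilia. Over all 6 libraries the 9 genes had higher means in the Arl13b-null group, and each difference was smaller than the SD of the Arl13b-null libraries. For Nrgn, Calm2 and Camk2n1 it was larger than the SD of the wild-type libraries. Nrgn had a variance-stabilised level of 8.06 ± 1.30 (SD, n = 3) over the wild-type libraries and 10.68 ± 4.64 (SD, n = 3) over those labelled Arl13b-null, a difference of 2.62 ± 2.33 (SE) on the log2 scale. Camk2b differed by 0.75 ± 2.03, Hpca by 0.72 ± 1.85, Calm2 by 0.71 ± 0.74 and Camk4 by 0.67 ± 1.61. Camk2n1 differed by 0.70 ± 0.74, Ppp3ca by 0.43 ± 0.76, Camk2a by 0.33 ± 1.12 and Ppp3r1 by 0.29 ± 0.47. None of the 9 passed an adjusted p of 0.05 in limma (0.990 for each), and 0.0% of the 14249 genes did, with 163 genes at an unadjusted p under 0.05 and 0 of the 9 among them. The groups overlapped for all 9, where 8.26% of all genes had groups that did not.

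These differences rested on Arl13b-null 2. The mean difference was above 0 for 9 of 9 genes with all 6 libraries, as for 50.2% of all genes, and below 0 for 9 of 9 without Arl13b-null 2, as for 45.5% of all genes. Without that library Camk2b differed by −1.33, Hpca by −1.21, Camk4 by −1.01, Camk2a by −0.96, Ppp3ca by −0.40, Ppp3r1 by −0.18, Calm2 by −0.15, Camk2n1 by −0.13 and Nrgn by −0.055. Wild-type 1 was then the highest library for all 9 genes, so these negative values rested on it in turn. With both left out, 4 of the 9 differences were above 0, and Camk2b differed by −0.089. Without wild-type 1, by contrast, the 9 differences were between 0.55 (Ppp3r1) and 3.37 (Nrgn). The median over the 9 was 0.70 with all libraries, against 0.0026 over all genes tested.

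In the 4 similar libraries the 9 genes differed little, apart from Nrgn and Camk2a, whose means moved in opposite directions. Nrgn had 116 and 79.6 normalized counts in wild-type 2 and 3 and 203 and 181 in Arl13b-null 1 and 3, a difference of 0.69 ± 0.14 (SE, n = 2 per group; limma adjusted p = 0.143). Camk2a had 949 and 1149.5 in wild-type 2 and 3 and 823 and 465 in Arl13b-null 1 and 3, a difference of −0.69 ± 0.24 (limma adjusted p = 0.301). Without Arl13b-null 1 the Camk2a difference was −1.06, and without Arl13b-null 3 it was −0.32. Each of these fits set 2 libraries against 1, and the lone library is assumed to vary like the others.

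The other 7 genes lay between −0.15 ± 0.092 (Hpca) and 0.099 ± 0.13 (Camk2n1) in these 4 libraries. Calm2 differed by 0.0074 ± 0.052, and its sign turned when each library was centred on its median (−0.0077) or under quantile normalization (−0.080). Camk2n1 turned sign without wild-type 2 or without Arl13b-null 1. None of the 9 passed in limma, where 0.253% of all genes did (0.0702% higher and 0.182% lower), and 2 of the 9, Nrgn and Camk2a, had an unadjusted p under 0.05, as did 2053 of all 14249. The groups of 2 did not overlap for 7 of the 9, Nrgn and Ppp3r1 higher and Camk2a, Camk2b, Camk4, Ppp3ca and Hpca lower, where 29.3% of all genes were higher and 18.1% lower in this sense. Their median difference was −0.061, against 0.023 over all genes tested.

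**Figure D5:**
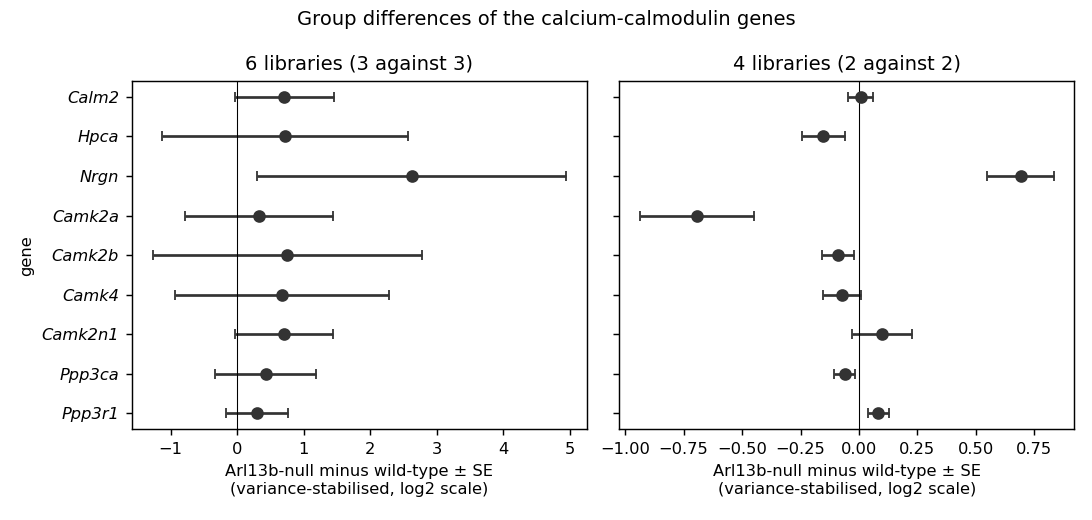
Difference of mean variance-stabilised values, Arl13b-null minus wild-type, with standard errors from limma, for the 9 genes over 6 libraries (left) and the 4 similar libraries (right); the x axes differ in range. On the left only Nrgn lies more than 1 standard error from 0, and on the right Nrgn (0.69) and Camk2a (−0.69) lie farthest from it.

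Markers of cortical neurons moved beside Camk2a in the 4 similar libraries. Neurod2, a transcription factor of excitatory neurons, fell (−2.26 ± 0.20, SE, limma adjusted p = 0.0348), and so did Neurod6, from the same family (−3.08 ± 0.28, limma adjusted p = 0.0354). The whole list summed to 9044 and 11969 normalized counts in wild-type 2 and 3 and to 4930 and 2282 in Arl13b-null 1 and 3. Arl13b-null 3 was the lowest of the 4 for this list and for Camk2a, and wild-type 3 the highest for both. The part of the cortical markers in the Camk2a values was not tested.

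Of the other pathway genes, 0 of 45 passed over 6 libraries and 1 of 45 passed in the 4 similar libraries, where 0.253% of all genes did. Nfatc4 had 653, 1196 and 1087 normalized counts across wild-type 1 to 3 and 619.9, 286 and 576 across Arl13b-null 1 to 3. It was lower in each Arl13b-null library than in each wild-type library, where 8.26% of all genes had groups that did not overlap in either direction. In the 4 similar libraries Nfatc4 fell by 0.86 ± 0.076 (SE, n = 2 per group, limma adjusted p = 0.0348). The call ended without wild-type 2 (limma adjusted p = 0.186), without wild-type 3 (0.115), without the mean-variance trend (0.0780) and without the filter on low values (0.264). Over all 6 libraries Nfatc4 differed by −0.92 ± 0.38 and did not pass (limma adjusted p = 0.990). With library weights, which lower the share of unlike libraries, it passed over 6 libraries (−0.95 ± 0.13, limma adjusted p = 0.0274), as 1 of 214 genes. The median of the 45 was 0.19 over 6 libraries and −0.064 over the 4 similar libraries.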

How the data were processed

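Libraries (6, poly(A) RNA-seq) were grouped by labelled genotype. Values on a log2 scale, normalized counts after a variance-stabilising transformation, were deposited by the authors as a single table ranging from 5.13 to 18.4. The submitters' processing notes name STAR 2.6.0 and Salmon 0.9.1, besides CASAVA, the build mm9 and DESeq2 with DESeq 1.16.1, without saying what each did. The annotation is not given in the sources used here, and the upstream sequences are of another build, so they were matched by symbol only.

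The shared lowest value was taken as a count of 0 and the parametric transformation was inverted to give normalized counts. The lowest inverted values lay at whole multiples of a step, between 0.538 and 1.31, taken as 1 read. A whole number of reads, to within 0.05, was recovered for 59.2% to 81.5% of values below 30 reads, so no count test was run. No 2 libraries agreed within sampling noise (lowest chi-square per degree of freedom 10.5).

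Genes with a mean at least 1 above the lowest value were kept (14249). All 9 genes were above this level in every library. Genotypes were compared in R 4.3.3 by limma 3.58.1 with a mean-variance trend, two-sided, with Benjamini-Hochberg adjustment at 0.05. The fit was tested on simulated data. A variance-stabilised difference understates the change of low genes.

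The 9 genes and the 18 lists (131 symbols, after a listed gene that is not reported here was left out) were chosen with earlier results of these data known. Genes named are the 9, up to 4 per list with the highest mean, genes that passed, and the 4 nearest in pattern to Nrgn, Camk2a and Camk4, skipping predicted and Y-linked genes. Other genes named were chosen after their values were seen. Alternatives were a replicate block, inverted counts with pseudocounts of 1 and 10, filters, library weights, robust moderation, no trend, quantile normalization or centring, and each library left out in turn. Figures were drawn with matplotlib 3.10.9.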

Additional observations from a re-analysis of the deposited data

How the results depend on the processing

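None of the 9 genes passed under any of 16 alternatives over 6 libraries, and over the 4 similar libraries 0 or 1 passed when a library was left out, the 1 being Camk2a without Arl13b-null 1. The count of all genes past the threshold over 6 libraries, 0, became 3 without the filter and 214 with library weights, and was between 0 and 4 when a library was left out, the 4 without wild-type 1. Over the 4 similar libraries it was 36 (10 higher, 26 lower), and became 1 without the filter, 56 (19 higher) with quantile normalization, 7 without the trend and 98 (34 higher) with robust moderation. Leaving out a library gave between 6 (without wild-type 2) and 725 (without Arl13b-null 1), with 17 (3 higher) without wild-type 3 and 78 (23 higher) without Arl13b-null 3. Of the 725, 419 were higher, a majority, where most of the 36 were lower. The causes of these shifts were not tested. Deviations from the group means correlated between same-numbered libraries at r = −0.71, −0.71 and 0.62, and 0 of 3 wild-type libraries correlated best with its own number. Wild-type 1 and Arl13b-null 2, which stand apart, carry different numbers and weigh heavily in these deviations, so the values cannot show whether libraries were paired. The replicate block gave 0 genes and 0 of the 9 over 6 libraries. The 4 similar libraries share 1 number across groups, so no paired fit was possible there. Library weights, which lower the share of unlike libraries, turned the sign of Camk2a (−0.94), Camk2b (−0.047), Camk4 (−0.018), Ppp3ca (−0.013) and Hpca (−0.061) over 6 libraries and gave Nrgn a difference of 0.63. On the scale of log2 counts with a pseudocount of 1, Nrgn differed by 0.99 in the 4 similar libraries. With 2 or 3 libraries per group, precision is limited by their number, and for low genes also by depth.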

Other observations

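Scaled to the sum of all normalized counts in a library, the ratios for Arl13b-null 2 were lower, since that library had the highest sum, 36200000 against 27500000 in the lowest library: Nrgn was 526 times the mean of wild-type 2 and 3, Camk2b 61.6 times and Ppp3r1 2.17 times. For wild-type 1 the same scaling gave 14.8 times for Camk2b.

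Thy1, a surface protein of mature neurons chosen here after its values were seen, was 557 times the mean of wild-type 2 and 3 in Arl13b-null 2 and 56.5 times in wild-type 1. Its normalized counts in wild-type 2 and 3 were low, at 15.2 and 3.92. It shares the order of Nrgn in Arl13b-null 2 but not its low ratio in wild-type 1 (6.97). Itpka, a calmodulin-regulated kinase of dendritic spines, also chosen after its values were seen, was counted at 29.3 for wild-type 1 and 543 for Arl13b-null 2 (normalized counts), against 15.7 to 22.7 in the 4 similar libraries. As for Nrgn, its ratio was much lower in wild-type 1 (1.57 times) than in Arl13b-null 2 (29.0 times).

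The libraries that stood apart also differed from each other in sex-linked transcripts. The normalized count of Ddx3y was 0.537 for wild-type 1 and 0 for Arl13b-null 2, and that of Xist 15101 and 244, so Arl13b-null 2 was low in both.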
